A study of Mus musculus with 8 samples.

Results

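The relation between 2 histone marks, trimethylation of histone H3 at lysine 4 (H3K4me3) and at lysine 27 (H3K27me3), was described in mouse germline stem cells kept in culture for about 60 months (60M). Every peak of the 2 H3K4me3 lists and the 2 H3K27me3 lists of these cells was used, and none was chosen by its value. Peaks of the 4 lists that shared at least 1 bp were merged into 61459 regions. The 8 lists of the whole series, which also cover cells grown for about 5 months (5M), gave 73734 regions. The cells came from testes of Green mice, a C57BL/6 line with the transgene Tg14(act-EGFP)OsbY01 for a green fluorescent protein, on a DBA/2 background, and the labels call the genotype wild type. They were grown with FGF2, GDNF and fetal bovine serum, as were the 5M cells. Each mark has libraries 1 and 2. Nothing in the labels ties them to separate cultures, and their spread may be technical only.

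H3K4me3 is placed by the SET1 and MLL methyltransferase complexes and is found mainly at promoters, both active and poised. H3K27me3 is placed by Polycomb repressive complex 2 and is found over silenced genes, many of them regulators of development. Promoters with both marks are known as bivalent and were described in embryonic stem cells and in germ cells. A region with peaks of both marks in a bulk culture can hold them on the same chromatin or in different cells, and these lists do not tell the cases apart.

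Borders of peaks lie on bins of 1000 bp, and positions are given as listed. They follow the chromosome lengths of the mouse build mm9, for which no annotation was at hand. Regions therefore carry no gene or promoter name, and the labelled cell type was not checked against marker genes. The strength of a peak is its maximum immunoprecipitation signal, the authors' own value per peak, turned into a percentile within its list. The lists carry no read totals, so depth is unknown. A peak that is not listed was not called, which does not show that the mark was absent. No test was made within the 60M cells, because an exact permutation test over 2 libraries of a mark cannot reach a usual threshold and peaks of a library are not replicates. Values are therefore given per library or as mean ± SD (n = 2).

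The H3K4me3 lists were long and the H3K27me3 lists short. H3K4me3 libraries 1 and 2 held 43699 and 41637 peaks that covered 98.3 and 95.5 Mb, and the H3K27me3 libraries held 14940 and 13037 peaks over 29.5 and 25.4 Mb. Mean widths were 2.25 and 2.29 kb for H3K4me3 and 1.97 and 1.95 kb for H3K27me3. Peaks of a single bin made up 25.9% and 23.4% of the H3K4me3 lists and 56.7% and 56.9% of the H3K27me3 lists. The marks also differed in how securely peaks were called. The highest −log10 p-value against the control in the lists, 15.95, was reached by 75.6% and 78.5% of H3K4me3 peaks and by 2.70% and 1.83% of H3K27me3 peaks.

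Most regions carried H3K4me3 alone. It was listed in both libraries, with no H3K27me3 peak in either, at 35205 regions (57.3% of the 61459). H3K27me3 alone was listed in both libraries at 4443 regions (7.23%), and both marks in all 4 libraries at 2554 (4.16%). In the remaining 19257 regions (31.3%) a library disagreed with its replicate. These were mostly peaks of 1 mark in 1 library, with 11088 regions for H3K27me3 and 6986 for H3K4me3. Another 848 regions had H3K4me3 in both libraries and H3K27me3 in 1, 169 the reverse, and 166 had each mark in 1 library. Where H3K27me3 library 2 or 1 decided alone, without its replicate, H3K27me3 alone covered 9785 or 11614 regions. With only peaks at the −log10 p ceiling of 15.95, 91 regions carried both marks and 68 H3K27me3 alone. Regions with a single mark averaged 2.41 kb (H3K4me3) and 2.30 kb (H3K27me3), and regions with both averaged 6.40 kb, with a maximum of 30 kb. A region with both marks joins the peaks of 4 lists, so a part of its greater width arises by construction.

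Seen from each mark, H3K4me3 was the frequent partner and H3K27me3 the rare one. When the lists of 1 mark were merged on their own, 38861 H3K4me3 regions were in both libraries, and 2086 of them (5.37%) overlapped H3K27me3 peaks of both libraries. The exact binomial (Clopper-Pearson) 95% interval was 5.15 to 5.60%. Of 7477 H3K27me3 regions in both libraries, 2597 (34.7%, 33.7 to 35.8%) overlapped H3K4me3 in both. Without H3K27me3 library 1 the latter share was 20.3% and without library 2 it was 17.8%. The intervals cover counting error only and treat regions as independent. In single bins the overlap was smaller, because peaks that meet often share little. Of 88282 bins with H3K4me3 in both libraries, 2590 lay in all 4 lists, which is 2.93% of these and 15.5% of the 16688 bins with H3K27me3 in both. Over all of mm9, H3K27me3 in both libraries covered 0.632% and H3K4me3 3.35% of the bins, so each share lay above that of the whole genome. The shares of the marks differ through their unlike totals, since the shared bins are the same.

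Overlapping peaks of the marks mostly shared a single bin. Among the 2554 regions with both marks, 1638 (64.1%) had at least 1 bin listed in all 4 libraries, and 1065 had exactly 1 such bin. Only 48 had 5 or more, and 916 (35.9%) had none. Over the 4 pairings of an H3K4me3 with an H3K27me3 library, there were 3030 to 3293 overlapping pairs of peaks. Of these, 72.9 to 76.6% shared a single bin. Staggered pairs, in which each peak reached beyond the other on 1 side, were the commonest form at 50.6 to 57.3%. The H3K4me3 peak lay within the H3K27me3 peak in 22.8 to 26.1% and the reverse held in 17.5 to 22.0%. Identical borders were found in 1.37 to 2.18% of pairs. The strengths of the overlapping peaks were nearly unrelated, with Spearman correlations of percentiles across these pairs of −0.016 to 0.084. Pairs are not independent, since an H3K27me3 peak could be paired with up to 5 H3K4me3 peaks.

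The strongest regions with both marks included H3K4me3 peaks bordered by H3K27me3 on both sides. The region with the highest mean percentile lay on chromosome 11 (11928000 to 11938999). Its H3K4me3 peak spanned 11935000 to 11938999 in both libraries, with signal maxima of 667.9 and 688.6. An H3K27me3 peak reached it from the left, ending at 11935999 in library 1 (maximum 100.6) and at 11934999 in library 2 (97.1). The overlap thus consisted of 1 bin in 1 library and of a shared border in the other. On its right a further H3K27me3 peak began at 11939000 in both lists, next to the H3K4me3 peak, with maxima of 89.6 and 84.9. The region of rank 7, on chromosome 1 (78212000 to 78217999), had the same order. Its 4 kb H3K4me3 peak reached maxima of 645.1 and 625.2. To its left H3K27me3 ended at 78211999 in both lists, and to its right H3K27me3 began at 78215000 in library 1 and at 78216000 in library 2.

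The other 6 of the 8 strongest regions lay on chromosomes 2, 4, 5 and 13. On chromosome 13 (31885000 to 31904999) an 8 kb H3K4me3 peak from 31897000 to 31904999 had maxima of 635.8 and 627. The H3K27me3 peak to its left was 13 kb wide in library 1 (maximum 123.3) and divided into 8 and 3 kb in library 2 (98.9 and 75.5). In library 1 a second H3K4me3 peak, 3 kb wide, lay wholly within this 13 kb peak. On chromosome 5 (102082000 to 102099999) 3 H3K27me3 peaks in each list alternated with 2 H3K4me3 peaks, the wider of which had 6 and 7 kb. Chromosome 2 (71365000 to 71385999) held the widest of the 8 regions, at 21 kb. A further region of chromosome 2 (91761000 to 91767999) measured 7 kb. Chromosome 4 contributed the last 2, at 48055000 to 48067999 and 46349000 to 46358999. In the first of these a 2 kb H3K4me3 peak lay wholly within a 7 kb H3K27me3 peak in both libraries. All 8 had mean percentiles of 95.7 to 97.3, and the number of their bins in all 4 lists ran from 0 to 3.

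The 6 regions with the most bins in all 4 lists were other ones, and 5 of them ranked below all 8 of these in H3K4me3. Chromosome 11 (21892000 to 21908999) had 10 bins in all 4 lists, a widest H3K4me3 peak of 13 kb in both libraries, and H3K4me3 maxima of 632 and 614.8. Its H3K27me3 maxima were 75 and 66.7. Chromosome 9 (24573000 to 24587999) had 9 shared bins. Regions with 8 shared bins lay on chromosome 13 (36812000 to 36829999), chromosome 7 (56885000 to 56898999) and, as the second one there, chromosome 9 (62984000 to 63003999). A region of chromosome 2 (61640000 to 61654999) had 7. On chromosome 7 the H3K4me3 maxima were low in the lists, at percentiles of 40.6 and 56.9, while H3K27me3 reached 94.9 in both.

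Each mark also had strong and wide regions without the other. H3K27me3 alone ranked highest on chromosome 13 (23498000 to 23502999), with maxima of 168.7 and 153.3 at percentiles above 99.9. Next came a pair on chromosome 18 (37898000 to 37900999, 164 and 150.4, and 37886000 to 37889999, 148.9 and 150.9) and a region on chromosome 6 (52185000 to 52187999, 149.5 and 140.4). Chromosome 7 (86690000 to 86694999) and chromosome 5 (120291000 to 120293999) completed the 6. These strong regions were 3 to 5 kb wide. By width, chromosome 17 (45666000 to 45680999) led with 15 kb in library 1 and 12 kb in library 2, and chromosome 12 (113353000 to 113363999) had 11 kb in both.

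For H3K4me3 alone, the strongest region was on chromosome 3 (51143000 to 51147999), with maxima of 844.8 and 769.6. Chromosome 4 (62162000 to 62164999) followed with 837.9 and 776.9, and the 6 strongest were 3 to 6 kb wide. The widest H3K4me3 peak without H3K27me3 measured 14 kb in both libraries, on chromosome 5 (123581000 to 123594999), with maxima of 750.9 and 688. Chromosome 10 (80388000 to 80399999) held 12 kb in both. The 4 others of the 6 widest, on chromosomes 5, 11, 16 and 17, measured 11 kb in both.

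The relation of every peak to the other mark was then scored in both lists of that mark. A peak overlapped it, abutted it (no base shared and a gap of 0 bp), had a gap of 1 to 5 kb, or lay more than 5 kb away. Of H3K4me3 peaks, 4.81 ± 0.310% overlapped H3K27me3, 3.46 ± 0.0286% abutted it and 75.7 ± 0.283% lay more than 5 kb away. Of H3K27me3 peaks, 19.0 ± 1.72% overlapped H3K4me3, 23.4 ± 0.654% abutted it, 19.1 ± 1.03% had a gap of 1 to 5 kb and 27.4 ± 0.754% lay further away. For the remaining 13.0 ± 0.0656% and 11.1 ± 0.788% the 2 lists of the other mark gave different answers. Per library, abutting H3K27me3 peaks made up 23.8% and 22.9% and overlapping ones 17.8% and 20.3%. A further 4.44% and 4.69% overlapped H3K4me3 in 1 of its lists only. The order is one of single peaks, since H3K27me3 regions found in both libraries overlapped H3K4me3 in 34.7%, as given above.

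**Figure D1:**
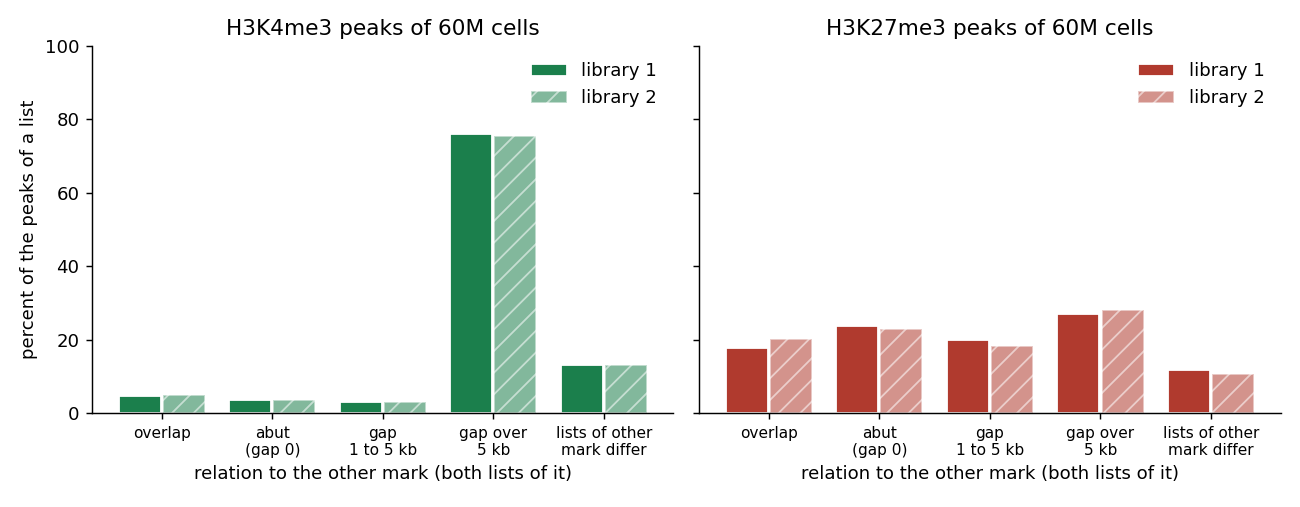
Percent of the peaks of each 60M list (vertical axis) that overlapped, abutted, lay 1 to 5 kb from or lay more than 5 kb from a peak of the other mark, with peaks for which both lists of that mark differed shown last. Plain bars are library 1 and hatched bars library 2, and the H3K4me3 bars stand near 76% for gaps over 5 kb while the H3K27me3 bars spread over all classes between 10.5% and 28.0%.

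Strength and width of H3K27me3 followed its distance from H3K4me3. H3K27me3 peaks that overlapped H3K4me3 were 3.65 ± 0.200 kb wide at a mean strength percentile of 68.0 ± 0.953. Abutting peaks had 1.75 ± 0.0362 kb and 54.4 ± 0.719, peaks with a gap of 1 to 5 kb had 1.42 ± 0.0224 kb and 44.9 ± 0.303, and peaks further away had 1.38 ± 0.00496 kb and 36.1 ± 1.02. In strength the 4 classes stood in the same order in both libraries and no value of one reached the next. The median signal maxima fell in the same order, from 58.7 and 56.8 in overlapping peaks to 39.5 and 40.4 in the most distant ones. H3K4me3 peaks showed no such order. Their mean percentile was 54.4 ± 2.65 when overlapping H3K27me3, 51.5 ± 0.971 when abutting, 44.2 ± 0.268 at 1 to 5 kb and 50.2 ± 0.397 further away.

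Peaks of either mark were wider where the other mark overlapped. H3K4me3 peaks that overlapped H3K27me3 in both lists averaged 2.89 and 3.07 kb in libraries 1 and 2, against 2.21 and 2.24 kb for peaks that overlapped it in neither. The difference was 0.760 ± 0.103 kb. H3K27me3 peaks with H3K4me3 averaged 3.79 and 3.50 kb and those without 1.53 and 1.51 kb, a difference of 2.13 ± 0.191 kb. In both marks the difference had the same sign in both libraries, which were scored against the same 2 lists of the other mark. A wider peak offers more bins for a contact, so these differences hold a part that arises by construction. With presence counted only where the other mark covered the middle bin of a peak, the difference was 0.125 ± 0.170 kb for H3K4me3, less than the spread between its libraries, and 1.21 ± 0.117 kb for H3K27me3. At 1 and 2 kb the middle bin is also an edge bin, at 2 kb the left one. H3K27me3 covered it in 2.63% and 2.67% of 2 kb H3K4me3 peaks and in 0.996% and 1.19% of those of 3 kb.

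The share of peaks that overlapped the other mark climbed with width in both marks. Among H3K4me3 peaks it ran from 2.06% and 1.92% at 1 kb over 5.81% and 6.28% at 3 kb to 17.9% and 25.1% at 6 to 9 kb. At 10 kb or more it was 38.5% of 26 and 45.5% of 33 peaks. Among H3K27me3 peaks it ran from 5.23% and 6.70% at 1 kb over 37.3% and 41.1% at 3 kb to 77.3% and 79.0% at 6 to 9 kb. Of the widest H3K27me3 peaks, 118 of 129 (91.5%) and 78 of 87 (89.7%) overlapped H3K4me3. Within those wide domains H3K4me3 covered a smaller share of the summits than of the length. It covered 29.9% and 29.5% of their length and 4.24% and 5.13% of their summits. In overlapping H3K27me3 peaks of all widths the corresponding values were 38.0% and 40.8% of the length and 36.4% and 41.6% of the summits.

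At a fixed width, the marks differed in how strength went with the other mark. H3K4me3 peaks of 3 kb with H3K27me3 had mean percentiles of 64.4 and 65.6, against 76.6 and 75.8 without it. At 4 to 5 kb the values were 72.8 and 73.5 against 84.9 and 84.7. Lower values with H3K27me3 were found in both libraries in every width class from 2 kb up, with differences from −12.2 to −3.08 percentile points, while at 1 kb the values with it were 0.292 and 3.81 points higher. For H3K27me3 the difference at fixed width was small. At 1 to 3 kb it lay between −0.386 and 1.70 points and from 4 kb up between 1.28 and 5.53 points, higher with H3K4me3.

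**Figure D2:**
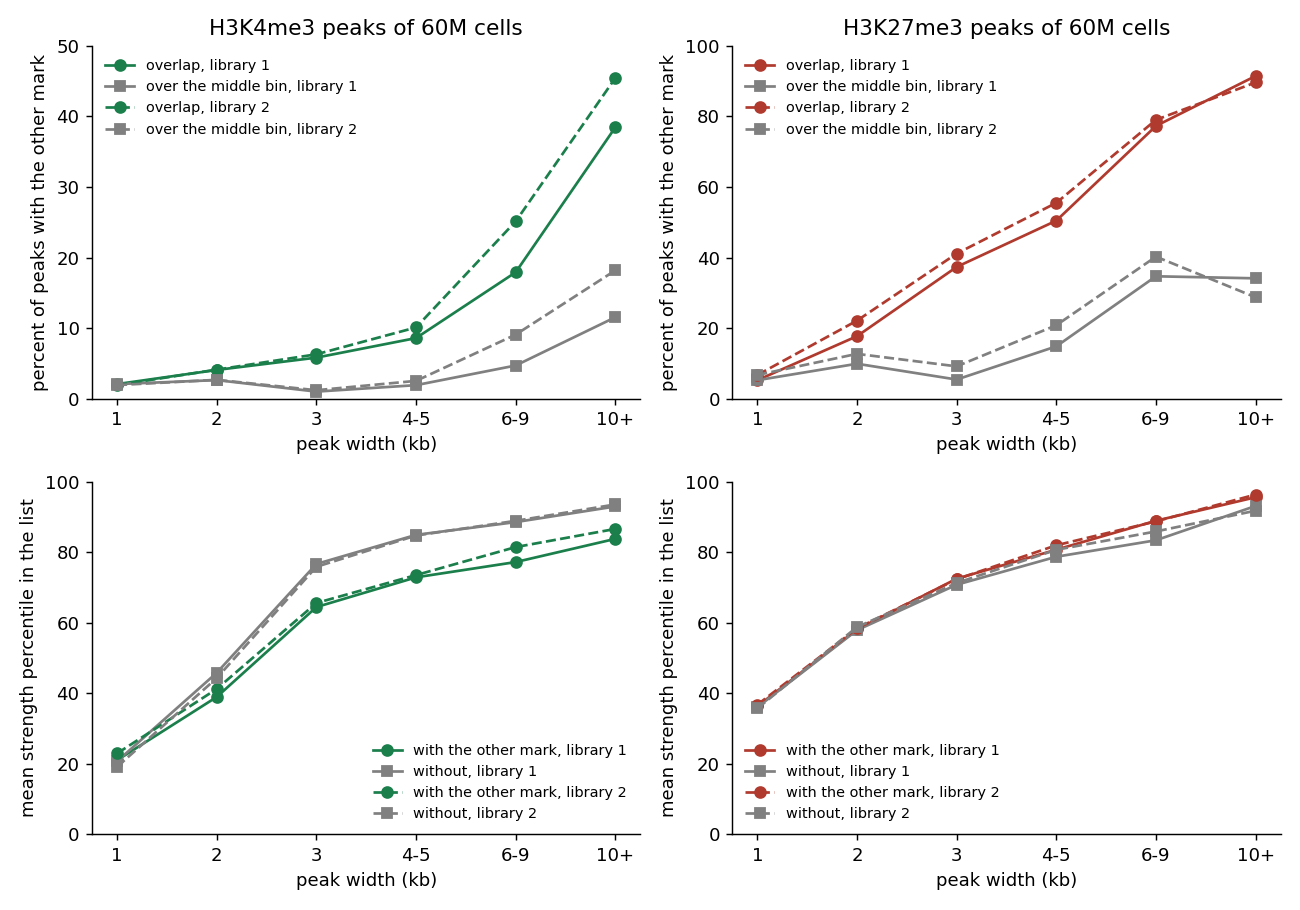
Upper panels give the percent of 60M peaks with the other mark in both its lists by peak width in kb (coloured, any overlap; grey, over the middle bin), with H3K4me3 left and H3K27me3 right, on vertical axes of different range. Lower panels give the mean strength percentile with (coloured) and without (grey) the other mark; solid lines are library 1 and dashed lines library 2, and from 2 kb up the H3K4me3 lines with H3K27me3 run below those without, while the H3K27me3 lines lie within 5.53 points of each other.

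Over all widths, the strength difference of H3K4me3 was small and its sign rested on how presence was defined. H3K4me3 peaks that overlapped H3K27me3 had mean percentiles of 52.5 and 56.3 and those without 49.9 and 49.6, a difference of 2.65 and 6.72 points (4.69 ± 2.87). Where H3K27me3 covered the middle bin, which in 2 kb peaks is the left one, the difference was −12.2 and −7.02 points (−9.63 ± 3.69). It was −2.00 points without single-bin peaks, −1.37 with at least 50% of the shorter peak shared and −6.46 among peaks at the −log10 p ceiling. For H3K27me3 the difference was 23.6 and 22.4 points by overlap (23.0 ± 0.847) and 9.50 ± 0.141 by the middle bin. It was 1.91 ± 0.680 where H3K4me3 had to cover the H3K27me3 summit, a definition chosen after seeing the data. Among the few H3K27me3 peaks at that ceiling it was −0.809 points.

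Across the ranks of a list the marks also differed. The share of H3K4me3 peaks that overlapped H3K27me3 was highest between the 60th and 70th percentile, at 6.74% and 7.27%, and lower at both ends. It was 2.03% and 1.43% below the 10th percentile and 1.99% and 3.63% above the 90th. The share of H3K27me3 peaks that overlapped H3K4me3 was 4.85% and 6.32% below the 10th percentile and 44.7% and 49.6% above the 90th. The share more than 5 kb from H3K4me3 went the other way, from 57.2% and 58.2% to 7.33% and 8.54%.

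H3K4me3 peaks that did not overlap H3K27me3 stood next to it far more often than at any other short distance. Over the 4 pairings of libraries, 2634 to 3314 H3K4me3 peaks had a gap of 0 bp to the nearest H3K27me3 peak, 937 to 1268 a gap of 1 kb and 471 to 603 a gap of 2 kb. From 6 to 12 kb the number averaged 300.6 to 351.3 for each kb of gap. The count at gap 0 was 8.24 to 9.43 times that average.

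**Figure D3:**
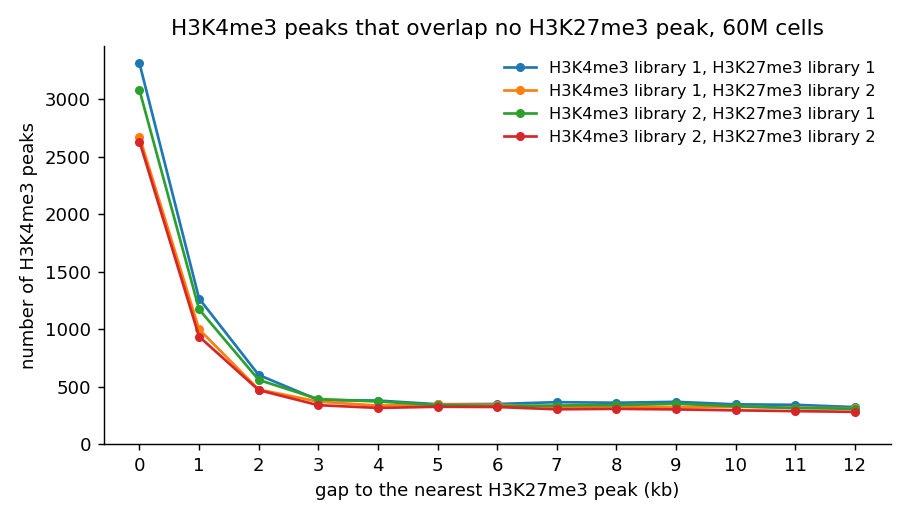
Number of H3K4me3 peaks without an overlapping H3K27me3 peak (vertical axis) by the gap in kb to the nearest H3K27me3 peak, with a line for each of the 4 pairings of a 60M H3K4me3 with a 60M H3K27me3 library. All 4 lines start between 2634 and 3314 at gap 0, reach 471 to 603 at 2 kb and stay between 282 and 393 from 3 kb to 12 kb.

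Many of these borders were placed at the same position in all 4 lists. A border at which H3K4me3 ended and H3K27me3 began was identical in the 4 lists at 1903 positions, with H3K27me3 on the left at 968 and on the right at 935. This was 2.69% of the 70642 H3K4me3 edges shared by both H3K4me3 libraries and 19.1% of the 9966 H3K27me3 edges shared by both H3K27me3 libraries. With H3K27me3 set 1 kb further away the number of matched edges was 444, and at 2 kb it was 233. Without H3K27me3 library 1 there were 3324 such borders and without library 2 there were 4009. A single pair of libraries had 3802 to 4792 common borders, and 50 were left in all 4 lists among peaks at the −log10 p ceiling. The H3K4me3 peaks at the 1903 borders had median percentiles of 55.7 and 57.3 in their lists, and the H3K27me3 peaks 71.5 and 66.0. These peaks were selected for an edge placed alike in both libraries of their mark. All abutting H3K4me3 peaks had medians of 50.8 and 52.4, and all abutting H3K27me3 peaks 56.8 and 54.0. The part of the selection in the higher values was not tested.

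The border with the strongest peaks lay on chromosome 4 at 134706000. A 4 kb H3K4me3 peak began there in both libraries (maxima 705.4 and 672.5), and H3K27me3 ended there in a peak of 15 kb in library 1 and of 4 kb in library 2 (121.5 and 89). On chromosome 14 at 122877000 a 5 kb H3K4me3 peak (657.3 and 635.7) was followed by a 12 kb H3K27me3 peak in both libraries (128.5 and 110.6). On chromosome 1 at 42750000 a 7 kb H3K4me3 peak (721.4 and 679.9) was preceded by H3K27me3 peaks of 8 and 6 kb. The other 5 of the 8 strongest were on chromosome 9 (98859000), chromosome 1 (78212000), chromosome 2 (38203000), chromosome 11 (11939000) and chromosome 14 (119536000). The H3K4me3 peak had identical borders in both libraries at all 8. The border at the named position was identical by selection, so only the far border was free to differ.

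Outside a peak, the other mark was most frequent in the nearest bins. H3K27me3 of both libraries was found in the first bin outside 6.04% and 6.41% of H3K4me3 edges and in the bin 12 kb away at 1.39% and 1.41%. H3K4me3 of both libraries was found in the first bin outside 22.5% and 22.6% of H3K27me3 edges, in the second at 23.2% and 22.1%, and 12 kb away at 6.51% and 6.20%. Inside H3K4me3 peaks of 6 kb or more, H3K27me3 was more frequent in the edge bin (8.82% and 14.4%) than in the bin beside it (4.41% and 7.76%), and the third bin lay between (5.24% and 8.75%). Inside H3K27me3 peaks of 6 kb or more, H3K4me3 was found in the edge bin at 22.3% and 19.9%, in the bin beside it at 15.2% and 16.8%, and in the third bin at 28.1% and 32.9%, the highest of the 3.

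**Figure D4:**
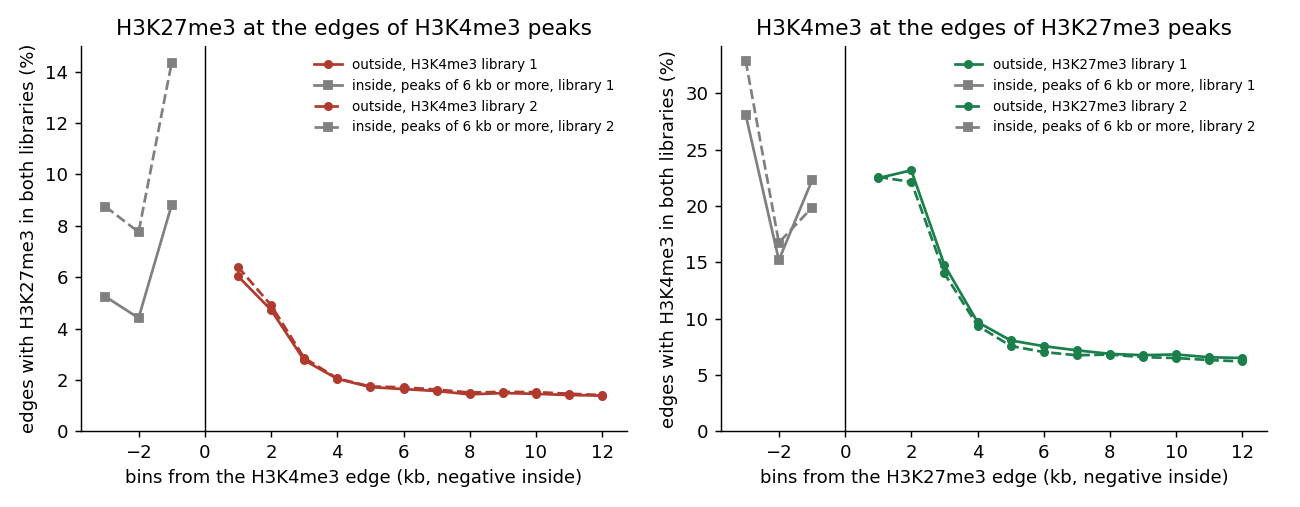
Percent of peak edges (vertical axis) with the other mark in both libraries, by the number of 1 kb bins from the edge, with bins inside the peak at negative values (grey, peaks of 6 kb or more only) and bins outside at positive values (coloured). Solid lines are library 1 and dashed lines library 2 of the mark whose edges are counted, and outside H3K4me3 edges the H3K27me3 lines drop from near 6% in the first bin to 1.39% and 1.41% at 12 kb.

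A part of the regions with a single mark therefore bordered the other mark. Of the 4443 regions with H3K27me3 alone, 1933 (43.5%) abutted an H3K4me3 peak in both lists and 1208 (27.2%) lay more than 5 kb from one. Of the 35205 regions with H3K4me3 alone, 1347 (3.83%) abutted H3K27me3 in both lists and 29260 (83.1%) lay more than 5 kb away. In H3K4me3 libraries 1 and 2, 200 and 194 peaks that overlapped no H3K27me3 were abutted by it on both sides in both of its lists. They averaged 2.26 and 2.31 kb, with mean percentiles of 54.1 and 57.6.

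Gaps of 2 and 3 kb within the H3K27me3 lists were filled exactly by an H3K4me3 peak more often than gaps of other lengths. Of the 1409 gaps of 2 kb between neighbouring H3K27me3 peaks in library 1, 254 (18.0%) were filled from border to border by the same H3K4me3 peak in both H3K4me3 lists. In library 2 this held for 172 of 1049 (16.4%). At 3 kb the shares were 12.5% and 11.3%, and at 5 kb 2.37% and 2.42%. The most numerous gaps, those of 1 kb (1767 and 1494), were filled in 4.92% and 4.35%. A gap can be filled exactly only by a peak of its own length, so these shares depend by construction on the widths listed. H3K4me3 libraries 1 and 2 held 11317 and 9739 peaks of 1 kb, 17700 and 17327 of 2 kb and 9736 and 9833 of 3 kb. At 4 to 5 kb they held 4345 and 4132. The reverse was rare, since at most 1.73% of H3K4me3 gaps of any length were filled exactly by H3K27me3. The H3K27me3 lists also held fewer peaks that could fill a gap, with 3175 and 2781 of 2 kb. H3K4me3 peaks of any kind reached into 59.5% and 57.2% of the 2 kb gaps. For gaps of 13 to 20 kb, which offer more room, the shares were 48.4% and 50.4%.

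**Figure D5:**
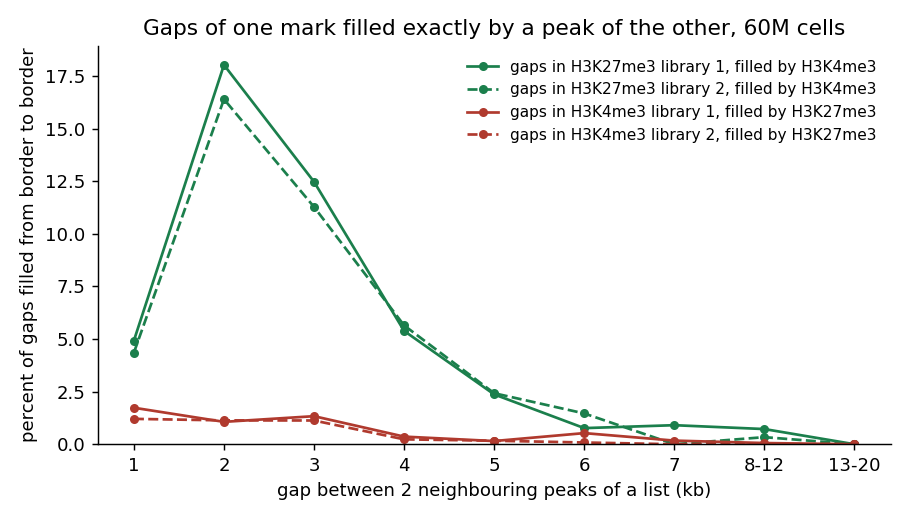
Percent of gaps between neighbouring peaks of a 60M list (vertical axis) that were filled from border to border by a peak of the other mark in both its lists, by gap length in kb. Solid lines are library 1 and dashed lines library 2 of the list with the gaps, and the H3K27me3 lists (green) reach 18.0% and 16.4% at 2 kb while the H3K4me3 lists (red) stay at or below 1.73%.

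Bins that carried a mark in both its libraries were joined into uninterrupted stretches. Of these, 35030 held H3K4me3 only, 3421 H3K27me3 only and 3580 both marks. In 1947 of the 3580 (54.4%) the marks stood side by side with no shared bin. The simplest form, a run of each mark, made up 1529 stretches with a mean length of 3.89 kb. H3K4me3 between 2 runs of H3K27me3 made up 323 stretches, with a median H3K4me3 length of 2 kb, and H3K27me3 between 2 runs of H3K4me3 made up 49. In 346 stretches 5 or more runs followed each other. The longest stretch covered 38 kb of chromosome 8 (59795000 to 59832999), with 27 kb of H3K27me3 alone, 9 kb of H3K4me3 alone and 2 kb of both in 11 runs. A stretch of 30 kb on chromosome 13 (83852000 to 83881999) had 21, 4 and 5 kb in 12 runs. The 3 next measured 28 kb each. They started at 9793000 on chromosome 2, at 99037000 on chromosome 3 and at 42135000 on chromosome 5.

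Agreement between the replicate lists was higher for H3K27me3 peaks at H3K4me3 than for distant ones. Of H3K27me3 peaks that overlapped H3K4me3, 83.2% and 85.5% were also found in the other H3K27me3 library. The shares were 64.4% and 73.5% for abutting peaks and 31.8% and 35.0% for peaks more than 5 kb away. Among peaks of 1 kb they were 43.6% and 47.7%, 47.7% and 59.2%, and 21.0% and 22.3%. At this width overlapping peaks were found in the other library less often than abutting ones. At 2 and 3 kb the order of overlapping and abutting peaks differed between the libraries. Distant H3K27me3 peaks were thus listed in both libraries less often also at equal width. They were weaker too, as given above, and the part of strength in this difference was not tested. For H3K4me3 the shares were 96.4% and 96.0% with H3K27me3 and 88.4% and 93.4% more than 5 kb from it. At equal width the libraries went opposite ways at 1 and 2 kb. Among 1 kb H3K4me3 peaks the shares were 84.5% and 72.2% with H3K27me3 and 69.3% and 79.5% away from it, lower with H3K27me3 in library 2. At 2 kb they were 95.1% and 95.6% against 91.8% and 96.1%, and at 3 kb all lay above 99%.

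The X chromosome held few regions with both marks. Of its 1087 H3K4me3 regions, 19 (1.75%, exact binomial interval 1.06 to 2.72%) carried H3K27me3, against 4.05 to 7.24% on the 19 autosomes. It had 5.24 H3K27me3 regions for every 100 H3K4me3 regions, where the autosomes had 16.9 to 24.0. The listed H3K27me3 peaks of the X were among the weakest of their lists, with median percentiles of 1.29 and 1.42, while no autosome was below 39.3. H3K4me3 peaks on the X were also sparser, at 7.37 and 7.12 per Mb against 13.0 to 23.2 and 12.3 to 21.9 on autosomes, with median percentiles of 40.9 and 39.5. Of the 57 H3K27me3 regions on the X, 28 (49.1%, 35.6 to 62.7%) carried H3K4me3. This share was higher than on every autosome, where the median was 34.9% and the highest value 41.5%. That highest value lay within the interval of the X. Ranks and counts were not adjusted for the copy number of a chromosome, and its part in the values of the X was not tested.

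The same measures in 5M cells were set beside those of 60M cells. The lists of the ages were unlike. At 5M the H3K4me3 libraries held 45933 and 47415 peaks with mean widths of 2.10 and 2.13 kb. The H3K27me3 libraries held 12002 and 14632 peaks of 2.15 and 2.38 kb, wider than at 60M. Overlap climbed with width, and the part of list length and width in the values below was not tested. H3K27me3 peaks overlapped H3K4me3 in 19.0 ± 1.72% at 60M and 27.2 ± 2.11% at 5M, and H3K4me3 peaks overlapped H3K27me3 in 4.81 ± 0.310% and 6.43 ± 0.221%. H3K4me3 peaks that abutted H3K27me3 made up 3.46 ± 0.0286% at 60M and 2.61 ± 0.119% at 5M, and borders identical in all 4 lists numbered 1903 and 1568. Those borders were 2.69% at 60M and 1.91% at 5M of the H3K4me3 edges shared by both libraries. Of the shared H3K27me3 edges they were 19.1% and 15.2%. H3K4me3 peaks with H3K27me3 were wider by 0.760 ± 0.103 kb at 60M and by 0.444 ± 0.0418 kb at 5M. In 8 of the 10 measures compared, no 60M library fell among the 5M libraries, and p was 0.333 for each of these in a two-sided exact permutation test. No lower p can be had from 2 libraries against 2. The share of H3K27me3 peaks that abutted H3K4me3 (23.4 ± 0.654% and 22.7 ± 1.33%) and the width difference of H3K27me3 (2.13 ± 0.191 and 2.30 ± 0.158 kb) overlapped between the ages, with p = 0.667 in the same exact test.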

How the data were processed

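Chromatin immunoprecipitation for either mark was followed by sequencing in cultured germline stem cells, with 2 libraries for each mark at 60M (4 libraries) and at 5M (8 libraries in all). Cross-linked chromatin was sonicated with or without prior micrococcal nuclease, per the labels' protocols, which do not tie the nuclease to libraries. The submitters' processing notes name CASAVA 1.8.4, Bowtie 1.1.2 and the build mm10, with the peak caller not given in the sources used here. A separate peak list was deposited by the authors for each library. Each list gives borders, the maximum signal of the immunoprecipitate, 2 columns of −log10 p-values (immunoprecipitate only, and relative to the control) and a q-value of at most 0.00097, per the file headers. No source states the scaling of the deposited signal, which was ranked within each list and not compared across lists. The deposited −log10 p against the control starts at 3.01 and has a ceiling of 15.95.

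Peaks ended beyond mm10 on 9 of 20 chromosomes (1331 peaks) and beyond mm9 on 1 (2 peaks, by at most 687 bp), with lengths from GenomeInfoDb 1.38.1. The gene and sequence tables at hand are of another build, and positions were not converted, so the planned gene names and cell type markers were not analysed here and no sequence is given.

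Computations used Python 3.11.15, numpy 2.4.6, pandas 2.3.3, scipy 1.17.1 and matplotlib 3.10.9. Peaks overlapped when they shared at least 1 bp. A mark was present when listed in both libraries. Percentiles are ranks of the signal maximum within a list. The peak summit column of H3K4me3 lay in the left bin of 74.3% and 75.5% of 2 kb peaks. H3K4me3 summits were therefore not used, and the middle bin took their place. In H3K27me3 the summit lay left in 49.7% and 49.6%. In peaks of even width the middle bin was the left of the central pair. At 2 kb it was thus the left bin, so it does not avoid the lean there. Named regions with both marks are the 8 with the highest mean percentile over 4 lists and the 6 with the most bins in all 4. Regions with 1 mark are the 6 strongest and 6 widest of each mark, and borders the 8 strongest. Members, lists and rules were chosen with earlier results of these data known. The region code was tested on simulated lists. Alternatives were leaving out libraries, pairing by number, a stricter threshold, equal list lengths, 50% overlap, joined peaks, the middle bin, no single-bin peaks, medians and bins as units.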

Additional observations from a re-analysis of the deposited data

Results flagged for a closer look

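In H3K4me3 the difference in mean strength percentile between peaks with and without an overlapping H3K27me3 peak had opposite signs at the 2 culture times. It was 2.65 and 6.72 points in the 60M libraries (4.69 ± 2.87, SD, n = 2) and −3.49 and −2.08 points in the 5M libraries (−2.78 ± 0.996), so the means differed by 7.47 points. The exact two-sided permutation test of 2 libraries against 2 gave p = 0.333, the smallest it allows, so a difference between the times was not shown. With H3K27me3 required over the middle bin the sign was negative at both times, at −9.63 ± 3.69 and −15.1 ± 0.623 points.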

How the results depend on the processing

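The 10 results were recomputed under the alternatives that apply to each, which gave 106 values. Of these, 53 moved by less than the spread between libraries or, for counts, stayed within 1.5 times, 48 moved further and 5 changed sign. For the shares of regions with the other mark, the spread used was that of the shares of single peaks in each library, which is another measure. Among only the peaks at the highest significance, 91 regions had both marks, 68 had H3K27me3 alone and 50 borders were shared. In that setting 0.333% of H3K4me3 and 51.2% of H3K27me3 regions carried the other mark, the H3K27me3 width difference was 4.52 kb, and the strength differences were −6.46 points for H3K4me3 and −0.809 for H3K27me3. At least 50% overlap gave shares of 4.12% and 25.6%, width differences of 0.531 and 1.92 kb, and strength differences of −1.37 and 17.9 points. Joining peaks separated by 1 bin gave a share of 38.8% of H3K27me3 regions, width differences of 0.962 and 3.11 kb, and an H3K27me3 strength difference of 25.3 points. The middle bin gave 0.125 and 1.21 kb and −9.63 and 9.50 points. Leaving out single-bin peaks gave 0.560 and 1.61 kb and −2.00 and 10.6 points. The H3K27me3 summit under H3K4me3, an alternative chosen after seeing the data, gave 0.286 kb and 1.91 points. The median H3K4me3 width difference was 1 kb. With 1 kb bins as units, 83264 carried H3K4me3 alone and 13355 H3K27me3 alone. Borders numbered 2882 when the H3K27me3 edge could lie 1 kb further away, also chosen after seeing the data. The cause was not tested for any of these changes. Shorter lists and smaller targets leave fewer overlaps by construction, while shares and differences can move either way.

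With each library left out in turn, the other library of its mark decided alone. Regions with both marks then numbered 2533 to 2686, with H3K4me3 alone 35953 to 40053, with H3K27me3 alone 4621 to 11614, and common borders 2107 to 4009. Without H3K27me3 library 1 there were 9785 regions with H3K27me3 alone and 3324 borders, and the highest of both came without H3K27me3 library 2. The shares with the other mark were 4.59 to 7.48% for H3K4me3 and 17.8 to 38.2% for H3K27me3, the latter lowest without H3K27me3 library 2 and 20.3% without library 1. Width differences were 0.601 to 0.832 kb and 1.97 to 2.26 kb, and strength differences 2.65 to 6.72 and 21.4 to 23.6 points.

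The labels do not say what libraries of the same number share, so pairing by number was an alternative. With the replicate block, 10997.5 regions had H3K27me3 alone on average, 6.77% and 21.5% of regions carried the other mark, the H3K4me3 width difference was 0.629 kb, the H3K27me3 strength difference 21.5 points and the borders 4297. No result rests on a test, so the block changed no call. Depth is unknown, so it could not be said which absent peaks it limits.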
